A study of Saccharomyces cerevisiae with 12 samples.

Results

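The tricarboxylic acid (TCA) cycle and pyruvate dehydrogenase genes of Saccharomyces cerevisiae, budding yeast, were followed over 4 glucose levels. They were taken as a list of 31 named genes, chosen by function and not by their values: the enzymes of the cycle with their isoenzymes, the pyruvate dehydrogenase subunits, the NADP-dependent isocitrate dehydrogenases, pyruvate carboxylase and malic enzyme, and the oxodicarboxylate carriers. All 31 had exactly 1 probe set on the array, among 5449 genes with one. Of these genes 28 were bright enough to be tested, among 4086 tested genes in all. The other 3, CIT3, IDP2 and IDP3, were too dim. Cells were grown at 2%, 1%, 0.5% or 0.25% glucose, with 3 biological replicates a level, and total RNA of each culture was labelled with biotin and read on its own Affymetrix array. The groups differ by glucose alone as far as the labels say. Strain, medium and time of sampling were not stated there. Each array title at every glucose level includes the term log without a definition. Whether a growth phase was meant by it could not be told. The comparisons ask which transcripts of the cycle differ between glucose levels and whether they follow the level in a graded way.

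In the mitochondrial matrix, pyruvate dehydrogenase turns pyruvate into acetyl-CoA, citrate synthase joins it to oxaloacetate, and the cycle oxidises the citrate back to oxaloacetate while it loads NADH and reduced flavin for the respiratory chain. Budding yeast ferments while glucose is plentiful, and many genes of the cycle are known to be held down by glucose repression and switched on by the Hap2/3/4/5 activator when glucose runs low. The first reactions of the cycle, up to 2-oxoglutarate, also supply glutamate, and their genes answer in addition to the retrograde pathway (Rtg1 and Rtg3), which signals the state of mitochondria to the nucleus.

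Values are array signals on a linear scale, and a probe set's signal can be compared between arrays but not with that of another probe set. The mean of the signals above 0, without the extreme 2% of them at each end, was 500 on every array. Of the 10928 probe sets, 5028 read 0 on all arrays and did not enter this mean. Arrays of one level correlated with r of 0.9815 to 0.9933 across genes, which are not independent replicates. A control measure set the 2% arrays apart: in 7 control genes, probe sets at the 3' end exceeded those at the 5' end by 1.28 ± 0.12 on the log2 scale at 2% glucose (SD, n = 3), and by 0.88 ± 0.06, 0.91 ± 0.03 and 0.88 ± 0.04 at 1%, 0.5% and 0.25%. No array at 2% overlapped the others in this 3' to 5' ratio (at least 1.19 against at most 0.943). Ribosomal RNA, read by 17 probe sets, gave a mean log2 signal of 7.77 ± 0.94 at 2% and of 8.92 ± 0.70, 9.08 ± 0.63 and 8.90 ± 0.70 at the lower levels. In every comparison with 2%, the glucose level and the 3' to 5' ratio therefore cannot be told apart, while 0.25% and 1% had the same mean ratio of 0.88. In such bulk RNA, fewer cells that make a transcript and less of it per cell cannot be told apart either. Precision is limited by the 3 arrays a level, and over the 28 genes the standard error of a log2 change had a median of 0.0986.

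Between 2% and 0.25% glucose, 7 of the 28 tested genes rose and 0 fell (limma, adjusted p under 0.05 over all tested genes). They were citrate synthase CIT1, malate dehydrogenase MDH1, 3 of the 4 subunits of succinate dehydrogenase (SDH1, SDH2 and SDH4), LSC2 of succinyl-CoA ligase, and the carrier ODC1. The rises ran from 1.35-fold (SDH4) to 1.70-fold (LSC2). None of the 4 pyruvate dehydrogenase subunit genes and none of ACO1, IDH1 and IDH2, which make 2-oxoglutarate from citrate, were called; their log2 values lay between -0.05 and 0.13.

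The 7 calls are 25% of the tested genes, where 2.91% of all tested genes were called higher and 1.13% lower. At an unadjusted p under 0.05, 13 of the 28 were higher and 0 lower, where 364 of all 4086 tested genes were higher and 282 lower. The median log2 value was 0.21 over the 28 genes and -0.02 over all tested genes, and 24 of 28 values were positive against 45.9% of all. In 12 of the 28 genes the 3 arrays at 0.25% all lay above the 3 at 2%, where this held for 10.1% of all tested genes. They all lay below in 0 of the 28, but the share of all tested genes was not counted in that direction. With the replicate number as a block in the fit (same-numbered arrays deviated together in 17 of 18 pairs), 11 genes were called higher, where 6.36% of all genes were, and 1 lower, MAE1, where 4.53% were. The added genes were CIT2, LSC1, SDH3 and MDH2. An F-test for any difference between the 4 levels called MDH1, CIT1, SDH1, SDH2 and SDH4, 5 of 28, where it called 2.13% of all tested genes. With the block it also called CIT2, LSC2, SDH3, MDH2 and ODC1, 10 of 28 against 8.13% of all.

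**Figure D1:**
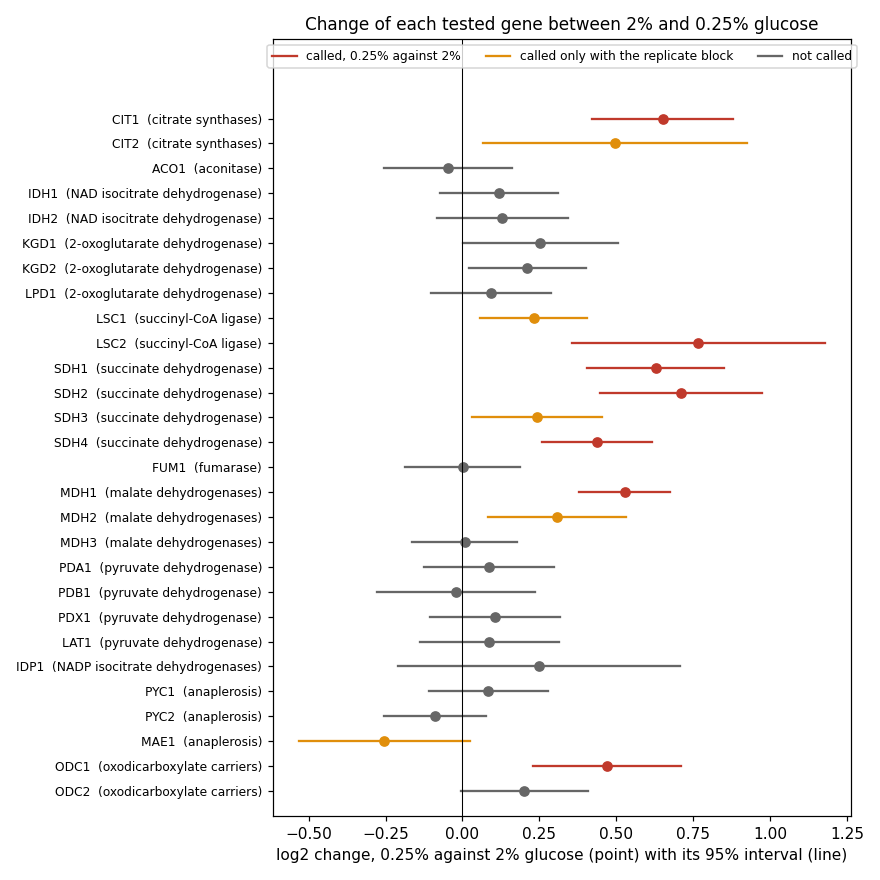
Log2 change of the 28 tested genes between 2% and 0.25% glucose (horizontal axis; points, with 95% intervals as lines), in the order of their roles. The 7 genes called in limma's test lie between 0.44 and 0.77, all to the right of 0, and the pyruvate dehydrogenase genes lie within 0.11 of 0.

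Citrate synthase opens the cycle and has 3 genes in yeast. CIT1 (YNR001C), the mitochondrial enzyme of the cycle, read 737, 973 and 879 at 2% (replicates 1, 2 and 3, the order used throughout), 959, 914 and 1035 at 1%, 945, 1088 and 1201 at 0.5%, and 1283, 1346 and 1412 at 0.25%. Every array at 0.25% lay above all arrays of the other levels, while the 3 higher levels overlapped one another. CIT1 rose 1.57-fold from 2% to 0.25% (95% interval 1.34 to 1.84, limma adjusted p = 0.0023). CIT2, the peroxisomal enzyme that serves the glyoxylate cycle and is the classic target of the retrograde pathway, read 546, 950 and 843 at 2% and 1018, 1077 and 1118 at 0.25%. Those levels did not overlap, but the arrays at 2% and at 1% (616, 783 and 1073) were spread widely. Its log2 value was 0.50 (interval 0.07 to 0.92), which missed the threshold (limma adjusted p = 0.23) and passed with the replicate block (0.012). The direction of the CIT2 value also turned in a fit with the 3' to 5' ratio as a covariate. CIT3, a minor mitochondrial enzyme that also takes propionyl-CoA, was too dim to test, between 9.73 and 20.2 on the 12 arrays.

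Aconitase and the NAD-dependent isocitrate dehydrogenase carry citrate on to 2-oxoglutarate. ACO1, the mitochondrial aconitase, read 2355, 2443 and 2664 at 2% and 2098, 2687 and 2460 at 0.25%, and the arrays overlapped. Its log2 value was -0.05 (interval -0.26 to 0.16). The regulatory subunit IDH1 gave 0.12 (interval -0.07 to 0.31), from 1001 ± 93.9 to 1084 ± 53.8, and the catalytic subunit IDH2 gave 0.13 (interval -0.08 to 0.34), from 1946 ± 232 to 2121 ± 122 (SD, n = 3). For all 3 genes the limma adjusted p was at least 0.58 and the intervals leave room for changes of up to 0.34 on the log2 scale. With the 3' to 5' ratio as a covariate IDH1 was at -0.16 and IDH2 at -0.37, so the direction of neither is settled.

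The 2-oxoglutarate dehydrogenase complex consists of KGD1, KGD2 and the dihydrolipoamide dehydrogenase LPD1, which it shares with pyruvate dehydrogenase. None of the 3 was called with or without the block. KGD1, the decarboxylating subunit, read 335, 448 and 403 at 2% and 434, 460 and 512 at 0.25%, a log2 value of 0.25 (limma adjusted p = 0.31) that turned to -0.047 with the 3' to 5' covariate. KGD2, the succinyltransferase, read 511, 591 and 541 at 2% and 648, 593 and 659 at 0.25%, without overlap, at 0.21 (0.25). LPD1 was at 0.09 (0.70), with overlapping arrays.

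Succinyl-CoA ligase turns succinyl-CoA into succinate and makes ATP. LSC2, its beta subunit (YGR244C), read 252, 205 and 300 at 2%, 264, 324 and 385 at 1%, 311, 375 and 426 at 0.5%, and 331, 423 and 544 at 0.25%. The arrays at 0.25% lay above those at 2%, and at each lower level replicate 3 was the highest and replicate 1 the lowest. LSC2 rose 1.70-fold (interval 1.28 to 2.26, limma adjusted p = 0.038). This call was lost in 6 of the 12 fits that each left out 1 array: replicate 1 or 2 at 2%, replicate 2 at 1%, replicate 2 at 0.5%, and replicate 2 or 3 at 0.25% (adjusted p up to 0.167). It was also lost with quantile normalization (limma adjusted p = 0.065), with arrays scaled to 1 median (0.0549), with ribosomal RNA as a covariate (0.193) and with only the 2% and 0.25% arrays fitted (0.0561). The alpha subunit LSC1 read 1084, 1174 and 1309 at 2% and 1337, 1393 and 1447 at 0.25%. These arrays did not overlap, but the log2 value of 0.23 missed the threshold (limma adjusted p = 0.16) and passed with the block (0.029). It turned to -0.14 with the 3' to 5' covariate.

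Succinate dehydrogenase belongs both to the cycle and to the respiratory chain, in which it is complex II, and it had the most genes called. SDH1, the flavoprotein subunit (YKL148C), read 219, 276 and 248 at 2%, 292, 254 and 289 at 1%, 303, 289 and 298 at 0.5%, and 356, 405 and 385 at 0.25%. All arrays at 0.25% exceeded the other 9. It rose 1.55-fold (interval 1.32 to 1.80, limma adjusted p = 0.0025). SDH2, the iron-sulfur subunit (YLL041C), read 163, 209 and 227 at 2%, 290, 240 and 248 at 1%, 257, 249 and 241 at 0.5%, and 335, 332 and 305 at 0.25%. Here the 2% arrays were the lowest, the 1% and 0.5% arrays lay together, and the 0.25% arrays were the highest. SDH2 rose 1.63-fold (interval 1.36 to 1.96, limma adjusted p = 0.0033).

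The remaining subunits anchor the enzyme in the inner membrane. SDH4 (YDR178W) read 422, 502 and 457 at 2%, 551, 528 and 522 at 1%, 539, 482 and 475 at 0.5%, and 611, 620 and 634 at 0.25%. Its 0.25% arrays were again above all others, and 1 array at 2% lay among those at 0.5%. SDH4 rose 1.35-fold (interval 1.20 to 1.53, limma adjusted p = 0.0069). SDH3 read 856, 885 and 926 at 2%, 957, 800 and 768 at 1%, 982, 834 and 813 at 0.5%, and 1124, 1067 and 969 at 0.25%. In SDH3 the 1% and 0.5% arrays surrounded those at 2%, and its log2 value of 0.24 was not called (limma adjusted p = 0.23) but passed with the block (0.049). Yeast has paralogues of some subunits (YJL045W of SDH1, SHH3 of SDH3 and SHH4 of SDH4), and the part of such transcripts in these signals was not tested.

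FUM1, fumarase, which hydrates fumarate to malate in mitochondria and in the cytosol, read 1425, 1454 and 1529 at 2% and 1527, 1386 and 1497 at 0.25%. Its arrays overlapped and its log2 value was 0.00 (interval -0.19 to 0.19).

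Among the malate dehydrogenases, which make oxaloacetate in 3 compartments, MDH1 alone was called at 0.25% against 2% without the block. MDH1 (YKL085W), the mitochondrial enzyme of the cycle, read 784, 876 and 834 at 2%, 914, 926 and 903 at 1%, 995, 1046 and 1008 at 0.5%, and 1138, 1193 and 1262 at 0.25%. The 4 levels did not overlap anywhere, and each step down in glucose brought a higher signal on every array. MDH1 rose 1.44-fold from 2% to 0.25% (interval 1.30 to 1.60, limma adjusted p = 0.00037), with the smallest adjusted p among the 28 genes. MDH2, the cytosolic enzyme of gluconeogenesis, read 820, 699 and 837 at 2%, 833, 668 and 741 at 1%, 780, 785 and 842 at 0.5%, and 1079, 856 and 988 at 0.25%. Only the 0.25% arrays stood above the rest in MDH2. Its log2 value of 0.31 missed the threshold (limma adjusted p = 0.14) and passed with the block (0.0089). MDH3, the peroxisomal enzyme, read 844, 996 and 943 at 2% and 878, 928 and 987 at 0.25%, with overlap, at 0.01 (interval -0.16 to 0.18).

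Pyruvate dehydrogenase links glycolysis to the cycle, and 0 of its 4 own subunit genes were called in limma's test in any comparison, with or without the block. PDA1, the alpha subunit of its first enzyme, read 3387, 3396 and 4007 at 2% and 3471, 4006 and 3965 at 0.25%, at a log2 value of 0.09 (interval -0.13 to 0.30). PDB1, the beta subunit, read 1974, 2103 and 2262 at 2% and 1806, 2038 and 2441 at 0.25%, at -0.02 (interval -0.28 to 0.23). LAT1, the acetyltransferase core, was at 0.09 (interval -0.14 to 0.31) and PDX1, which binds LPD1 to that core, at 0.11 (interval -0.10 to 0.32). In all 4 genes the arrays of the highest and the lowest glucose level overlapped. The smallest unadjusted p of the 4 genes over the 6 comparisons and the trend was 0.13. The upper bounds of the intervals, 0.23 to 0.32, leave room for a small rise, and a direct test of pyruvate dehydrogenase against cycle genes was not made.

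Isocitrate dehydrogenases that use NADP are found in 3 compartments. IDP1, the mitochondrial one, read 715, 874 and 990 at 2%, 914, 937 and 1247 at 1%, 711, 1003 and 1308 at 0.5%, and 815, 954 and 1335 at 0.25%. Replicate 1 was the lowest and replicate 3 the highest at every level, and the levels overlapped; its log2 value was 0.25 (limma adjusted p = 0.65). IDP2, the cytosolic enzyme, known to be strongly repressed by glucose, was among the dim genes at every level: 29.4, 52.0 and 51.1 at 2% and 41.1, 57.5 and 56.4 at 0.25%, with overlap. IDP3, the peroxisomal enzyme used in breaking down unsaturated fatty acids, was dim too, at 22.6, 19.8 and 21.9 at 2%, 28.9, 28.1 and 25.7 at 1%, 26.9, 28.4 and 33.0 at 0.5%, and 31.4, 37.1 and 32.2 at 0.25%. The 2% arrays were below the other 9 in IDP3. Without the filter on dim genes, IDP3 gave a log2 value of 0.64 (limma adjusted p = 0.0502) and passed as a trend (0.20 per 2-fold step down in glucose, adjusted p = 0.033), while CIT3 and IDP2 were at 0.25 and 0.26 (adjusted p = 0.75 and 0.61). At such low signals a change may be understated.

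Among the genes that feed or drain the cycle, ODC1 alone was called at 0.25% against 2% without the block. The pyruvate carboxylases, cytosolic enzymes that refill oxaloacetate, were at 0.08 (PYC1) and -0.09 (PYC2) on the log2 scale, with overlapping arrays (limma adjusted p = 0.73 and 0.65). MAE1, the mitochondrial malic enzyme, which turns malate into pyruvate, read 984, 1007 and 1162 at 2% and 715, 906 and 1050 at 0.25%. Within each replicate number the 0.25% array was the lower one, although the levels overlapped. Its log2 value was -0.25 (limma adjusted p = 0.36; called lower with the block, adjusted p = 0.029). ODC1 (YPL134C), one of a pair of carriers that exchange 2-oxoglutarate and related acids across the inner membrane, read 126, 150 and 136 at 2%, 143, 124 and 133 at 1%, 141, 155 and 160 at 0.5%, and 191, 171 and 209 at 0.25%. The arrays at 0.25% exceeded all others, which overlapped. ODC1 rose 1.38-fold (interval 1.17 to 1.64, limma adjusted p = 0.031), and the call was lost without replicate 1 or 3 at 2%, replicate 2 at 0.5%, or replicate 1 or 3 at 0.25% (adjusted p up to 0.153). It was also lost with only the 2% and 0.25% arrays fitted (limma adjusted p = 0.0986) or ribosomal RNA as a covariate (0.109). ODC2, the other carrier, read 360, 416 and 375 at 2% and 430, 396 and 500 at 0.25%, with overlap, at 0.20 (limma adjusted p = 0.33).

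**Figure D2:**
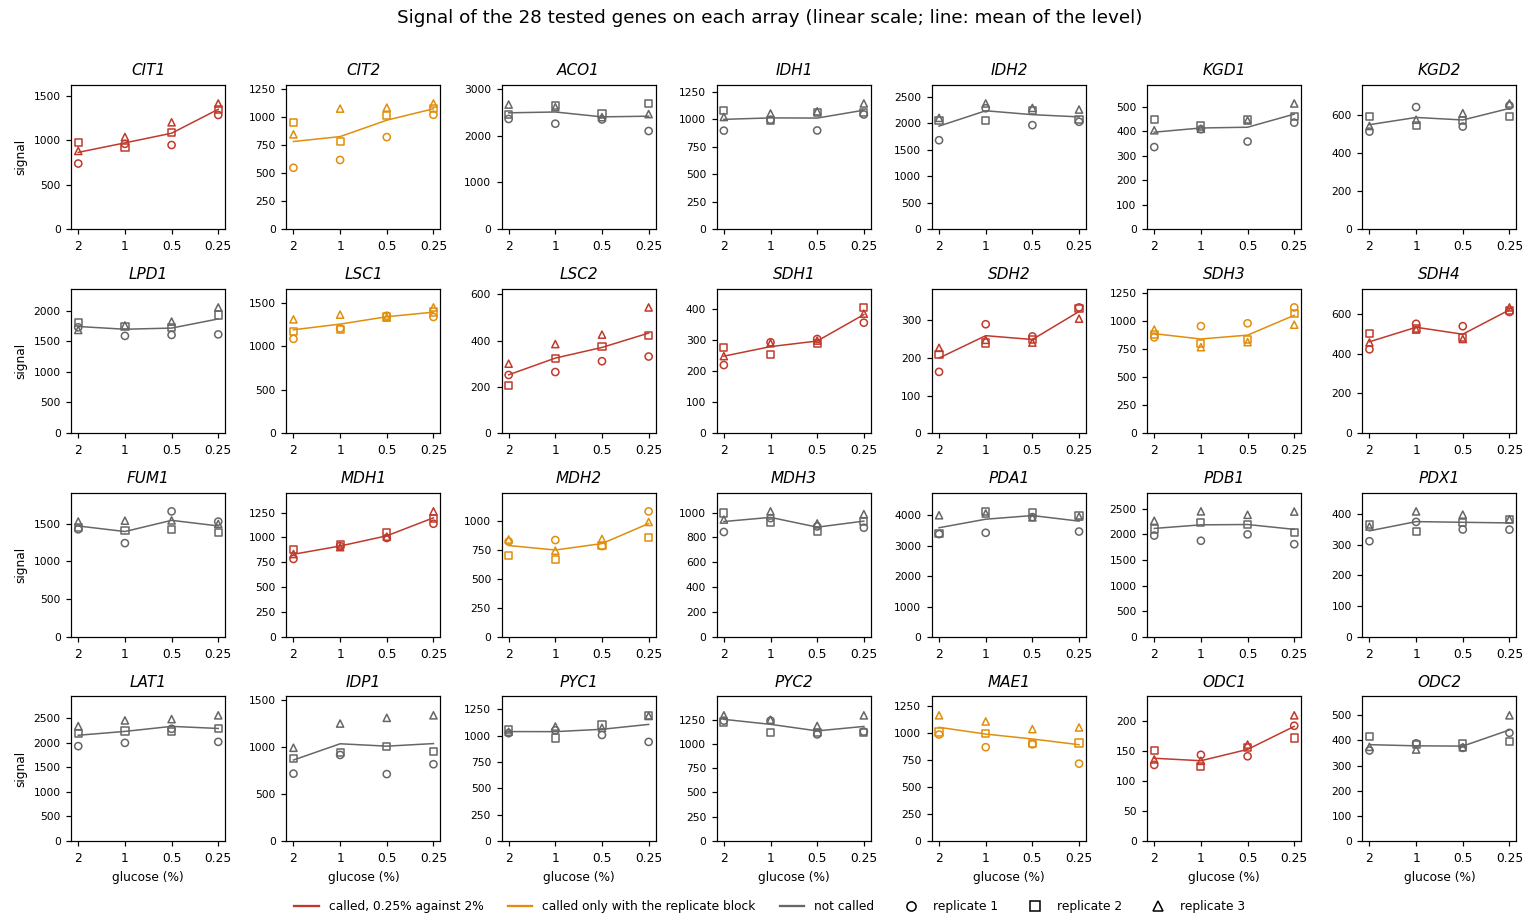
Signal of the 28 tested genes on each array (vertical axes, linear, each from 0) against glucose in % (horizontal axis), with 1 symbol per replicate number and a line through the level means. MDH1 rises at every step from 831 at 2% to 1198 at 0.25%, and in IDP1 the replicate numbers lie apart at every level.

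Support for these calls was unequal. CIT1, SDH1, SDH2, SDH4 and MDH1 passed in all 12 fits that left out 1 array. The same 5 were called higher with the ribosomal RNA signal of each array as a covariate, which left LSC2 and ODC1 out and called MAE1 lower. When the 3' to 5' ratio was the covariate, 0 of the 28 genes passed in limma's test (1 at an unadjusted p under 0.05), and 8 of all tested genes did. The median standard error of the 28 genes was 0.259 in that fit, against 0.0986 without the covariate. The estimates changed too: the log2 value went from 0.71 to 0.012 in SDH2, from 0.65 to 0.16 in CIT1 and from 0.63 to 0.17 in SDH1. It went from 0.44 to 0.25 in SDH4, from 0.47 to 0.30 in ODC1, from 0.53 to 0.46 in MDH1 and from 0.77 to 0.72 in LSC2. The median log2 value of the 28 genes was -0.05 with the covariate and 0.21 without. The cause of these changes was not tested.

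Across all 4 levels, the slope of log2 signal on glucose was tested, in log2 units per 2-fold step down. The same 7 genes rose as glucose fell: LSC2 by 0.25 per step (limma adjusted p = 0.015), CIT1 by 0.21 (0.00077), SDH2 by 0.21 (0.0065), SDH1 by 0.20 (0.0015), MDH1 by 0.17 (6.2e-05), ODC1 by 0.16 (0.021) and SDH4 by 0.12 (0.030). This compares with 3.52% of all tested genes called higher and 1.66% lower, and 0 of the 28 were called lower (1 at an unadjusted p under 0.05, against 351 of all 4086). The call of SDH4 was lost without replicate 1 or 3 at 2% or any single array at 0.25%, that of ODC1 without replicate 1 at 2% or replicate 1 or 3 at 0.25%, and that of LSC2 without replicate 2 at 2% or replicate 3 at 0.25%. With the block, CIT2, LSC1 and MDH2 passed as well, 10 in all, and MAE1 passed as falling (-0.08, adjusted p = 0.020), where 6% of all genes passed as higher and 4.63% as lower.

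Over the 3 steps, the log2 differences of the means in MDH1 were 0.14, 0.15 and 0.24 (2% to 1%, 1% to 0.5% and 0.5% to 0.25%), and those in CIT1 0.18, 0.15 and 0.33. In SDH2 the differences were 0.39, -0.05 and 0.38, and in SDH4 0.22, -0.10 and 0.32, so that 0.5% lay no higher than 1%. ODC1 gave -0.04, 0.19 and 0.32, while MDH2 and SDH3 were at -0.07 and -0.08 in the first step and at 0.27 each in the last. LSC2 had its largest difference in the first step, with 0.36, 0.20 and 0.21. No single step was called for any of the 28 genes in limma's test, where 0.22% of all genes were called higher from 2% to 1% and 0.0734% in each of the other steps. At an unadjusted p under 0.05, 2 were higher in the first step, 1 in the second and 9 in the last, and 0 were lower in any of them. Over all 4086 tested genes these counts were 129 higher and 153 lower in the first step, 54 and 84 in the second, and 122 and 14 in the last, in which 65.4% of all genes had a positive value. Whether these courses differ in shape between genes was not tested.

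**Figure D3:**
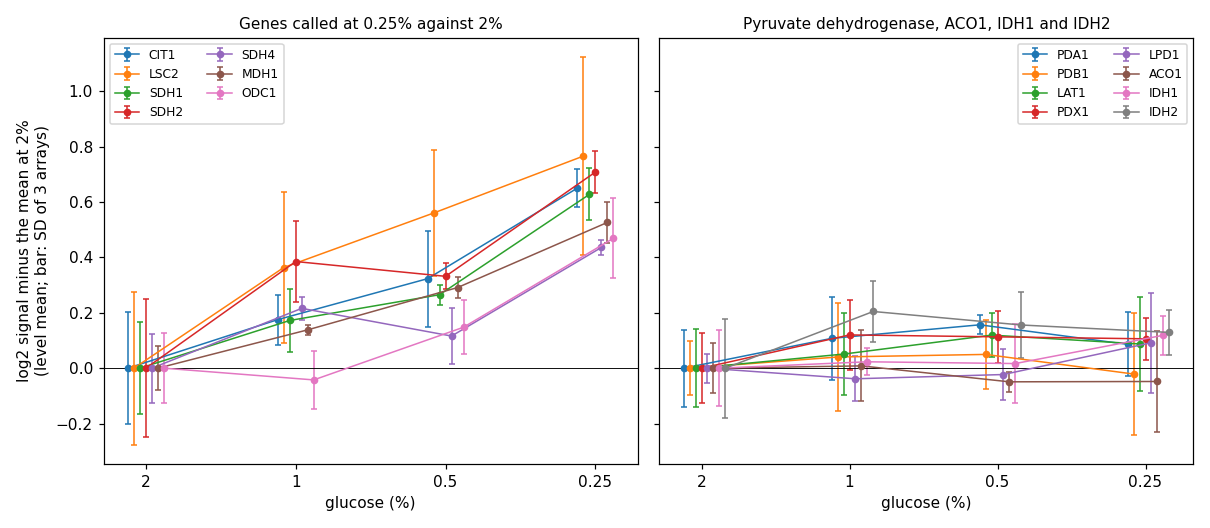
Log2 signal relative to the mean at 2% (vertical axis; points are level means, bars the SD of 3 arrays) against glucose in % (horizontal axis). The 7 called genes (left) end between 0.44 and 0.77 at 0.25%, and the pyruvate dehydrogenase genes with LPD1, ACO1, IDH1 and IDH2 (right) end between -0.05 and 0.13.

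From 2% to 0.5% glucose 0 of 28 genes passed (limma; 6 were higher at an unadjusted p under 0.05 and 0 lower, against 196 and 379 of all 4086 tested genes), where 0.808% of all genes were called higher. MDH1 came closest at a log2 value of 0.29 (adjusted p = 0.055). With the block, MDH1, CIT1 and LSC2 passed (adjusted p = 0.0058, 0.016 and 0.0055), 3 of 28 against 3.35% of all tested genes.

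The comparison of 0.25% with 1% glucose leaves the 2% arrays out of the difference, and the 3' to 5' ratio was the same in both levels. MDH1 (log2 0.39, limma adjusted p = 0.012) and ODC1 (0.51, adjusted p = 0.049) rose, 2 of 28, where 0.759% of all genes were called higher. CIT1 was at 0.48 (0.055) and SDH1 at 0.46 (0.061), both just above the threshold. In 10 genes the 3 arrays at 0.25% lay above the 3 at 1% (CIT1, KGD1, the 4 SDH genes, MDH1, MDH2, ODC1 and ODC2), against 7.51% of all tested genes. With the block, CIT1, SDH1, SDH3, MDH1, MDH2 and ODC1 passed, 6 of 28 against 2.06% of all. Fits without single arrays called between 0 and 4 genes here, and without replicate 2 or 3 at 1% or replicate 3 at 0.25% none passed. MDH1 passed in all the other fits of this kind, but ODC1 only in that without replicate 2 at 2%. Array weights, whose iteration stopped before it converged, called 7, and the block with the 3' to 5' covariate 8.

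A trend over the 9 arrays at 1%, 0.5% and 0.25% alone called CIT1 (0.24 per step, limma adjusted p = 0.029), MDH1 (0.19, 0.011), ODC1 (0.26, 0.038) and SDH1 (0.23, 0.0498). That is 4 of 28, where 0.808% of all tested genes were called higher. With the block CIT2, LSC2, MDH2 and SDH3 passed too, 8 of 28 against 2.28% of all. SDH2 and SDH4, called when the 2% arrays were included, had slopes of 0.16 and 0.11 here (adjusted p = 0.41 and 0.62). Both had their arrays at 1% wholly above those at 2%, but so did MDH1, which kept its call. The share of all tested genes with such arrays was not counted. The 3' to 5' ratio differed across that step as well, and the cause of the lost calls was not tested.

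Whether genes of one enzyme or one reaction changed unequally was asked in 12 pairs with both genes bright enough, by the slope of the log2 difference within each array. In a two-sided exact permutation test over the 369600 assignments of arrays to levels, adjusted over the 12 pairs, 2 pairs were called. MDH1 rose relative to MDH3 by 0.18 per 2-fold step down in glucose (exact permutation p = 1.6e-05, adjusted p = 0.00019). The log2 ratio of MDH1 to MDH3 was -0.16 ± 0.04 at 2%, -0.07 ± 0.09 at 1%, 0.20 ± 0.09 at 0.5% and 0.36 ± 0.01 at 0.25% (SD, n = 3). The ratio overlapped between 2% and 1% only, and it was called without any single array (adjusted exact p up to 0.00078). ODC1 rose relative to ODC2 by 0.10 per step (exact p = 0.0016, adjusted p = 0.0093), with ratios of -1.48 ± 0.03, -1.51 ± 0.11, -1.31 ± 0.09 and -1.21 ± 0.05. Such a ratio holds the brightness of both probe sets, so its changes can be read but its level cannot.

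LSC1 relative to LSC2, the 2 subunits of one enzyme, had a slope of -0.17 that missed the threshold (exact permutation adjusted p = 0.055). With assignments kept within replicate numbers it was called (0.0052), as was PYC1 relative to PYC2 (slope 0.06, adjusted p = 0.062 without and 0.029 with the block). MDH2 relative to MDH3 was at 0.11 (exact adjusted p = 0.098). Over the 9 arrays below 2%, both MDH1 and MDH2 rose relative to MDH3 (slopes 0.22 and 0.21, exact adjusted p = 0.014 each), and so did ODC1 relative to ODC2 (0.15, 0.014). IDH1 relative to IDH2, subunits of 1 enzyme, had a slope of 0.00 over all arrays (exact adjusted p = 0.97) and 0.09 over these 9 (0.018). The slope was not called for SDH1 relative to SDH2 (-0.01, exact adjusted p = 0.86), KGD1 relative to KGD2 (0.02, 0.72), PDA1 relative to PDB1 (0.04, 0.35), CIT1 relative to CIT2 (0.04, 0.72), MDH1 relative to MDH2 (0.07, 0.29) or IDH1 relative to IDP1 (-0.03, 0.72).

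**Figure D4:**
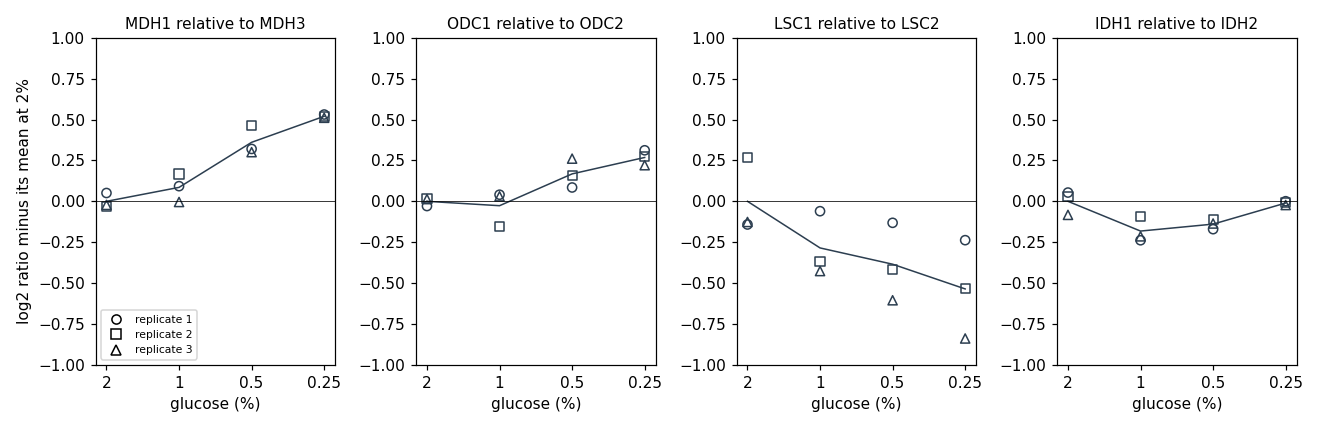
Log2 ratio of paired genes on each array, minus its mean at 2% (vertical axis), against glucose in % (horizontal axis), with 1 symbol per replicate number and a line through the level means. MDH1 relative to MDH3 ends 0.52 above its mean at 2%, ODC1 relative to ODC2 0.27 above, LSC1 relative to LSC2 0.54 below on average with wide spread, and IDH1 relative to IDH2 near 0.

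Part of the spread followed the replicate number in place of glucose. A test added after the values were seen compared the replicate numbers (F-test in limma's fit with the block). It called 7 of the 28 genes at an adjusted p under 0.05, a share close to the 22.7% called among all tested genes. IDP1 had the smallest adjusted p of these 7 (limma, 0.00023). It had 77.7% of its sum of squares between the numbers, replicate 3 being 1.55-fold above replicate 1 on average. PDB1 (86.1%), LAT1 (74.9%) and MAE1 (60.4%) had most of theirs there as well, with replicate 3 above replicate 1 by 1.25-fold, 1.20-fold and 1.26-fold. CIT2, LSC2 and MDH2 completed the 7. At the other end, MDH1 had 94.4% of its sum of squares between glucose levels and 2.8% between numbers, and SDH1, SDH2, SDH4 and ODC1 had at least 80.6% between levels. The medians were 36.5% between levels and 31.4% between numbers for the 28 genes, and 27.3% and 29.4% for all tested genes. The labels do not say what the numbers stand for.

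**Figure D5:**
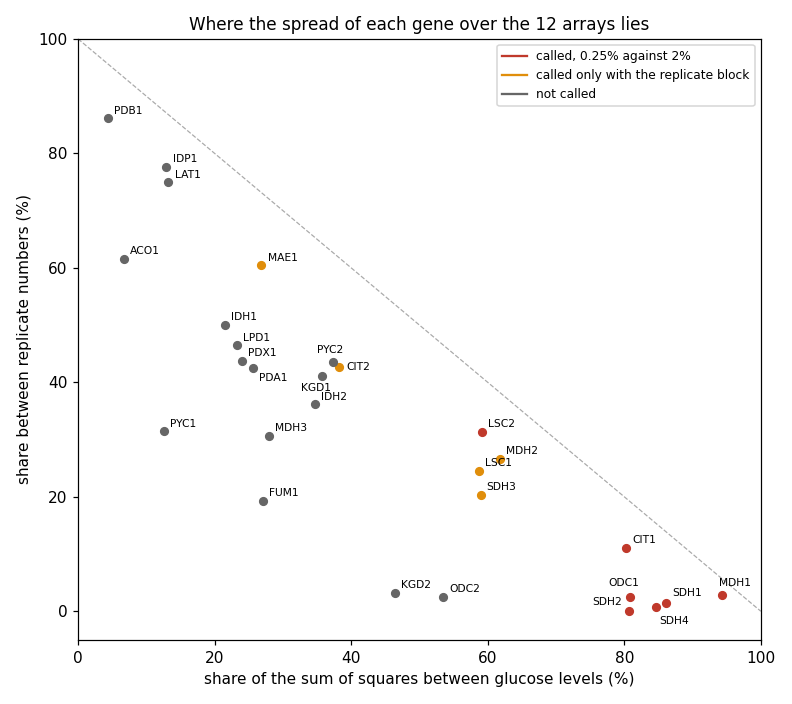
Share of each tested gene's sum of squares that lies between glucose levels (horizontal axis, %) and between replicate numbers (vertical axis, %); the dashed line marks 100% in sum. MDH1 lies at 94.4% and 2.8%, and PDB1 at 4.3% and 86.1%.

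Genes that neighbour the cycle were read from 8 lists written by function. Of the glyoxylate cycle and gluconeogenesis list (ICL1, MLS1, DAL7, PCK1, FBP1, ACS1 and AGX1), 7 had a probe set and 1 was bright enough to be tested: ACS1, an acetyl-CoA synthetase, which rose from 97.7 ± 11.7 to 138 ± 13.9 (log2 0.50, limma adjusted p = 0.045). In 9 of the 12 fits with 1 array left out ACS1 did not pass, at an adjusted p of up to 0.216. In the list of assembly factors and paralogues of succinate dehydrogenase 6 of 8 were tested, and SDH5, which attaches the flavin to SDH1, rose from 188 ± 21.5 to 258 ± 5.8 (0.46, adjusted p = 0.022), a call lost without replicate 1 or 3 at 2% or any single array at 0.25%. With the block SDH8, another assembly factor, passed too (0.27, adjusted p = 0.016). At 0.25% against 2%, calls without the block in these and the following lists stand against 2.91% of all tested genes higher and 1.13% lower. Calls made there only with the block (SDH8, LYS21, LYS4, DIC1 and OAC1) stand against 6.36% higher and 4.53% lower. In the trend, the block also called SDH7 (0.10 per step, limma adjusted p = 0.047) and the mitochondrial carrier MTM1 (0.08, 0.049), against 6% of all genes higher. ACS1 was not called in the trend without the block (limma adjusted p = 0.068).

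Of the 12 tested genes around 2-oxoglutarate and glutamate, GAD1, glutamate decarboxylase, rose from 111 ± 12.7 to 176 ± 19.1 (log2 0.67, limma adjusted p = 0.0056). GLT1, which makes glutamate from 2-oxoglutarate and glutamine, fell from 1043 ± 37.4 to 687 ± 135 (-0.62, adjusted p = 0.0059). Both calls held in all 12 fits that left out 1 array. With the block LYS21 and LYS4 of lysine synthesis were lower as well (-0.24 and -0.27, adjusted p = 0.033 and 0.037). GDH1, the main glutamate dehydrogenase of ammonium assimilation, was at 0.00. Among the other mitochondrial carriers listed, 0 of 6 were called in limma's test without the block (2 higher and 1 lower at an unadjusted p under 0.05). With it the dicarboxylate carrier DIC1 was higher (0.22, limma adjusted p = 0.040) and the oxaloacetate carrier OAC1 lower (-0.21, adjusted p = 0.041).

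No gene was called in limma's test, with or without the block, in the lists of pyruvate dehydrogenase regulation with lipoate attachment and pyruvate import (7 tested, median log2 -0.01), the retrograde pathway (8 tested, median 0.00), the HAP activators (3 tested, median 0.12) and other enzymes next to the cycle (7 tested, median 0.09). At 0.25% against 2%, 0 genes of these 4 lists passed at an unadjusted p under 0.05 either. HAP4, the glucose-regulated subunit of the activator, was not among the 3 tested genes.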

How the data were processed

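Total RNA of 12 yeast cultures was extracted with Trizol LS, labelled with biotin and read on one-colour Affymetrix arrays, per the labels. The deposited values are linear array intensities with 1 signal for each probe set, scaled by the authors to a common trimmed mean with a program not given in the sources used here. Scaling conceals a change in total RNA per cell. Of 10928 probe sets, 5498 were named for 1 yeast gene by the platform annotation; for genes with several, the brightest was kept (5449 genes). Signals below 1 were set to 1 before the log2 was taken, and genes with a mean at or below percentile 25 (a signal of 110.2) were left out.

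limma 3.58.1 (R 4.3.3) fitted 1 mean for each level over all 12 arrays, with a variance prior that follows intensity (trend in eBayes), two-sided tests and Benjamini-Hochberg adjustment over the 4086 tested genes with a threshold of 0.05. The trend is a slope on minus log2 of the glucose percentage. Gene pairs were tested by exact permutation. The steps were tested on simulated data. All 31 genes are named whatever their result; of the 8 related lists, genes that passed at 0.25% against 2% or in the trend may be named, at most 5 a list, and GDH1, HAP4 and the genes called only with the block were chosen after their values were seen. The genes and lists were chosen with earlier results of these data known. Roles of genes come from general knowledge.

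The labels number the arrays 1 to 3 at each level without saying that equal numbers belong together. Deviations from the level means correlated above 0.1 in 17 of 18 same-numbered pairs, and 12 of 12 arrays correlated best with their own number. Only replicate 2 of 1% against 2% was at -0.0268. The numbers were taken to pair the arrays from the values and not from a label. The block was fitted over all 12 arrays, so it also covers 1% against 2%. The fit set as the main one has no block, and the blocked value stands beside a result that it changes. The alternatives tried were quantile and median scaling, an offset of 16, other filters on dim genes, the mean of probe sets, covariates, array weights, fewer levels, and each array left out. Promoter motifs and protein sequences were not analysed here.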

Additional observations from a re-analysis of the deposited data

How the results depend on the processing

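At 0.25% against 2%, the count of genes called higher was 7, and 11 with the replicate block, 0 with the 3' to 5' covariate (limma; 1 at an unadjusted p under 0.05) and 1 with the block and that covariate together, a fit added after seeing the data; other settings gave 5 to 7. The count of genes called lower was 0, and 1 (MAE1) with the block or the ribosomal RNA covariate, in the trend too. In the trend 7 rose, 10 with the block, 9 with quantile normalization, 5 with the ribosomal RNA covariate, 4 over the 3 lower levels alone (8 with the block), 1 (MDH1) with the 3' to 5' covariate, 6 with that covariate and the block, and 4 to 7 with single arrays left out; both combinations with the block were added after seeing the data. At 0.25% against 1% the count was 2, 6 with the block, and 0 to 4 with single arrays left out. Among settings added there after seeing the data it was 7 with array weights, 8 with the block and the 3' to 5' covariate, 4 with the ribosomal RNA covariate, 1 with median scaling, with dim genes cut at the median or with only the compared levels, and 2 or 3 otherwise. At 0.5% against 2% it was 0, and 1 with quantile or median scaling or with dim genes cut at the median, 3 with the block and 4 with array weights. The iteration of the array weights stopped before it converged, in the fit shared by all comparisons between levels. Pairs called numbered 2, and 4 with assignments within replicate numbers, over the 3 lower levels alone or, at most, with 1 array left out (2 to 4). Among the comparisons reported, the block changed no other call of the 28 genes than those given here and beside the results.

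Reversed values lay furthest from 0 with the 3' to 5' covariate and near 0 in the other settings listed here. With the 3' to 5' covariate, log2 values turned to -0.58 (CIT2), -0.16 (IDH1), -0.37 (IDH2), -0.047 (KGD1), -0.14 (LSC1), -0.14 (FUM1), -0.30 (MDH3), -0.060 (PDA1), -0.34 (PDX1), -0.24 (LAT1), -0.36 (IDP1) and -0.0079 (PYC1). With the ribosomal RNA covariate they turned to -0.0779 (FUM1), -0.094 (MDH3), -0.0091 (PDA1), -0.00551 (PDX1), -0.082 (LAT1) and -0.030 (IDP1). Array weights gave 0.051 (ACO1) and -0.029 (FUM1), and quantile normalization 0.0064 (PDB1). Over the 3 lower levels alone the slope was 0.066 for SDH1 relative to SDH2 and 0.055 for IDH1 relative to IDP1. With single arrays left out, log2 values spanned 0 in ACO1 (-0.13 to 0.050), FUM1 (-0.028 to 0.042), MDH3 (-0.060 to 0.060) and PDB1 (-0.14 to 0.080), as did the slopes of IDH1 relative to IDH2 (-0.0096 to 0.019), SDH1 relative to SDH2 (-0.026 to 0.015) and IDH1 relative to IDP1 (-0.074 to 0.00096). The cause of these turns was not tested.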
